A study of Mus musculus with 14 samples.

Results

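Whole-lung RNA of male C57BL/6N mice that had received carbonized carbon fibre (CCF) was compared directly with that of mice that had received the fibre before any recycling (VCF). The series design states the recycling steps as carbonization, which gives CCF, and firing, which gives RCF. Each fibre was given into the trachea at 200 µg per mouse, control mice received the PBS vehicle, and lungs were taken at 1 month. Of the 14 arrays of the series, 6 belong to this comparison, 3 CCF and 3 VCF, with 1 array per lung from independent animals per the series design. The 5 control arrays serve as the background level, and the 3 RCF arrays enter the shared estimate of the spread and the filter on dim probes. The labels name no allele, and the exposure was modelled by 1 dose given into the airway, seen at 1 time. Members of the comparison were chosen by their sample titles alone, so that no measured value entered the choice. The question is how far lungs differ between the carbonized and the unrecycled form of the same kind of fibre.

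Inhaled or instilled fibres that are not cleared keep macrophages and recruited neutrophils in contact with the airspaces. Neutrophils leave the marrow as mature cells that carry abundant mRNA for calprotectin and for stefin-type protease inhibitors, while most mRNA for their granule proteins is made earlier, in marrow precursors. Dividing cells switch on genes of spindle assembly and cytokinesis late in the cycle, many under the control of CCAAT boxes bound by NF-Y and of the cell cycle homology region. Whole-lung RNA mixes all resident and blood cells, so that fewer cells of a type and less RNA per cell cannot be told apart in any value below.

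Levels are log2 of the processed signal minus the 75th percentile of the array, where 0 is that percentile, and a difference is CCF minus VCF with its standard error from limma (3 arrays a group). VCF 1 and CCF 2 were the dimmest arrays of their groups, with a 75th percentile of 4.78 and 5.98 times the negative control spots, against 20.1 to 26.1 in the other CCF and VCF arrays. On these 6 arrays 49.4% to 60% of non-control spots were well above background. Slide 1 held CCF 1 and 2 and VCF 1 and 2, and slide 2 held CCF 3 and VCF 3. The CCF and VCF groups were thus balanced over slides and scanned on 1 day. Control 1 and 2 and RCF 1 were on slide 1 too, and control 3 was on slide 2. Control 4 and 5 and RCF 2 and 3 were on slide 3, scanned on another day. The control range and the shared spread thus include a slide without CCF or VCF arrays. With only the CCF, VCF and control arrays of slides 1 and 2 in the fit, 9 of the 68 genes called below passed. Slide as a fixed block gave 563 calls. The smaller fit also has fewer arrays, so that the part of slide 3 alone was not told apart. Defining markers of lung were present: Sftpc, the surfactant protein of alveolar type 2 cells, had a mean level of 7.94 in CCF and 8.39 in VCF, and Scgb1a1 of club cells 7.81 and 8.33, all well above background on each array. Of 30579 genes tested, 17290 have a symbol.

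In the direct comparison 68 genes passed limma's threshold of an adjusted p under 0.05, which is 0.222% of those tested. In CCF 29 rose (0.0948%) and 39 fell (0.128%), and by the fitted difference 60 of the 68 differed more than 2-fold, 22 falls and 1 rise more than 4-fold. These counts include 3 genes with 1 group not well above background on any array, for which the data give only a bound: Hrob, the 1 rise (at least 2.42-fold), Shcbp1 (at least 1.99-fold) and a fall without a symbol, probe A_66_P117279 (at least 2.62-fold). A symbol was known for 46, of which 27 rose and 19 fell. Genes on the neutrophil list made up 10 of the 19 named falls and genes on the mitosis list 7 of the 27 named rises, as the volcano plot shows. At an unadjusted p under 0.05 stood 2311 higher genes (7.56%) and 1899 lower genes (6.21%), and the median difference over all genes was 0.01. The 3 CCF arrays did not overlap the 3 VCF arrays for 10.7% of all genes upward and 8.34% downward, and for all 68 called genes. On slide 1 alone and on slide 2 alone the difference had the same direction for all 68, which their choice on these arrays largely fixes.

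**Figure D1:**
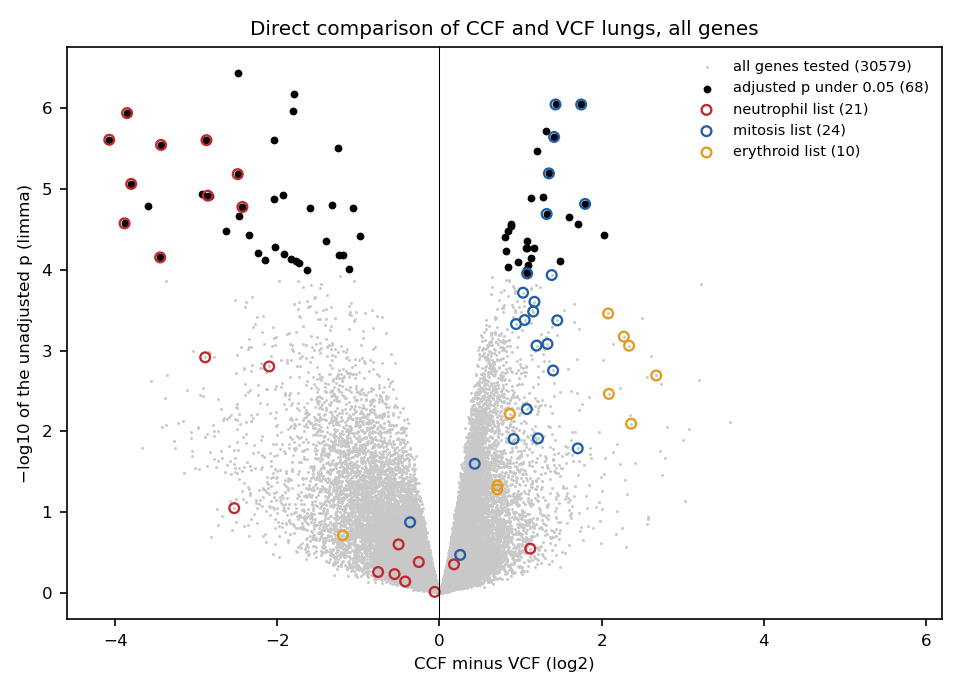
Each point is 1 of 30579 genes, with the CCF minus VCF difference (log2) on the x axis and −log10 of limma's unadjusted p on the y axis. Black points are the 68 genes past the threshold, and rings mark the neutrophil (red, 21), mitosis (blue, 24) and erythroid (orange, 10) lists. The called neutrophil genes lie to the left and the called mitosis genes to the right, while 9 of the 10 erythroid genes lie to the right with 0 called.

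The number of calls rested on the shared spread and on single arrays. With only the 6 CCF and VCF arrays in the fit 0 genes passed (3347 at an unadjusted p under 0.05), and with slide as a fixed block 563 passed, the 68 among them. The count was 29, 25 and 30 without VCF 1 to 3, 30, 21 and 22 without CCF 1 to 3, 142 and 45 without control 2 and control 3, 42 without RCF 2, and 1, Retnlg, without both dim arrays. Of 36 called genes named here, 10 passed without each array in turn: Cstdc4, Stfa1, Stfa2, Retnlg, Trem3, Kif20a, Mki67, Shcbp1, Ces2b and Ces2e. The other 26 lost their call without at least 1 array, with an adjusted p of up to 0.145. The split into 29 higher and 39 lower became 2 and 11 with array median scaling, 1 and 10 with normexp background, 19 and 41 when the percentile was taken over probes detected on all arrays, and 51 and 38 in the authors' values. Array median scaling moved the median of all genes by 0.12, and all 36 called genes named kept their sign in each alternative that gave them a value, 30 to 32 of 32.

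Where the vehicle arrays lay was described for the 68 called genes without a test. The control mean fell between the CCF and VCF means for 56 of them (82.4%, against 31.1% of all genes). A wide difference between CCF and VCF encloses the control mean more often, so that the choice of the 68 raises this share by itself. All 3 CCF arrays lay outside the range of the 5 control arrays for 55, and all 3 VCF arrays for 38. These counts and those that follow were made for the called genes alone, with no share over all genes beside them. The choice on the difference favours such arrays, so that the counts only describe the 68. Among the 39 falls the CCF arrays were outside that range for all 39 and the VCF arrays for 15. Among the 29 rises it was the VCF arrays for 23 and the CCF arrays for 16.

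Neutrophil genes fell in CCF. Of 22 neutrophil markers listed 21 were measured, and 10 fell, 0 rose, with a list median of −2.49 against 0.01 over all genes. This list and those that follow were chosen with earlier results of these arrays against vehicle known. Their counts and medians thus only describe the members. At an unadjusted p under 0.05 stood 12, all lower, and for 13 the CCF arrays all lay below the VCF arrays. The list median of single arrays, each gene taken against its control mean, was −0.93, −1.25 and −1.01 in CCF 1 to 3, from −0.32 to 0.24 in control and 0.85, 1.54 and 1.19 in VCF 1 to 3. CCF, control and VCF thus lay apart, with control between the fibres. Without CCF 2 only 4 of the members passed, and 5 without CCF 3, VCF 2 or VCF 3.

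The stefin A genes, which encode small cytosolic inhibitors of cathepsins abundant in mature neutrophils, held 4 of the 10 falls. They sit side by side on chromosome 16 and are near-copies of one another. Whether the probes tell such copies apart was not tested. Shown here are the 150 bases before the RefSeq start of each (GRCm38.p6), which lie outside the transcript and do not bear on the probes. In capitals is the longest run that all 4 share, of 16 bases.
Stfa1 (chr16:36276998-36277147, plus strand): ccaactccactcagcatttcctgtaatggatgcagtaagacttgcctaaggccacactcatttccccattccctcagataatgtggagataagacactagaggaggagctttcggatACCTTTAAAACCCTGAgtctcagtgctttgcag
Stfa2 (chr16:36408364-36408513, minus strand): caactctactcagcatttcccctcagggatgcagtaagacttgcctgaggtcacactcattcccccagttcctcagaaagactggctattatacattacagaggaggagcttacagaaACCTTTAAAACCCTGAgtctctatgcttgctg
Stfa2l1 (chr16:36156661-36156810, plus strand): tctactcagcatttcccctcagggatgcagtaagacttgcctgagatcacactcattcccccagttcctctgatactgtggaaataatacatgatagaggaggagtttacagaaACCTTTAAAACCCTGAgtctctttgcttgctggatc
Cstdc4 (chr16:36184062-36184211, plus strand): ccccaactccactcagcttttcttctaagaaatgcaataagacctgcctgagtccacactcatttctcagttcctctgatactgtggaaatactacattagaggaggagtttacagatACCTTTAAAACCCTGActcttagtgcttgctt
Pairs of these promoters were identical at 77.9% to 86.4% of aligned positions. The C/EBP motif TTNNGCAA, searched on both strands of the 250 bases before the start with any start of a gene counting, was present for 7 of the 20 neutrophil list genes with a promoter in the table (35.0%) and for 10.8% of all 27025 genes. Such a match describes letters and not a bound site, and the near-copies are not independent.

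Stfa2 stood at −2.46, −3.54 and −2.72 in CCF 1 to 3 and at 0.71, 1.47 and 1.31 in VCF 1 to 3, with control from −1.52 to −0.51. Its difference was −4.07 ± 0.48 (16.8-fold, adjusted p = 0.00697). Cstdc4 stood at −2.61, −3.26 and −3 in CCF and at 0.18, 1.42 and 1.11 in VCF, a difference of −3.85 ± 0.42 (14.5-fold, adjusted p = 0.00587). For both genes each CCF array was below, and each VCF array above, the whole range of the 5 control arrays. Stfa1, at −3.43 ± 0.41, showed the same separation from VCF, with −3.94, −3.72 and −3.60 in CCF, of which 1 array was not well above background, against −0.82, 0.05 and −0.18 in VCF. Stfa2l1 fell by 3.80 ± 0.51 on the log2 scale. Within slide 1 and slide 2 Stfa2 differed by −4.09 and −4.04 and Cstdc4 by −3.73 and −4.10.

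Calprotectin, the calcium-binding pair S100a8 and S100a9 that fills the neutrophil cytosol, fell together. S100a8 stood at 2.95, 2.03 and 2.70 in CCF 1 to 3, from 4.05 to 4.73 in control and at 5.11, 5.81 and 5.34 in VCF 1 to 3. It fell by 2.86 ± 0.40 (7.25-fold, adjusted p = 0.017). S100a9 stood at 5.09, 4.27 and 4.89 in CCF, from 6.22 to 6.90 in control and at 7.52, 7.13 and 7.06 in VCF, a difference of −2.49 ± 0.33 (5.61-fold, adjusted p = 0.0125). Neither gene's groups overlapped, and in both the dim array CCF 2 was the lowest. Without single arrays S100a9 ran from −2.66 to −2.25 and S100a8 from −3.05 to −2.60, with the adjusted p up to 0.0567 and 0.0809.

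Receptors, a granule protease and other products of neutrophils fell as well. Cxcr2, the receptor for the chemokines that draw neutrophils into tissue, stood at −2.92, −3.43 and −2.40 in CCF and at 0.06, 0.77 and 2.07 in VCF, with control from −1.72 to 0.23. It fell by 3.89 ± 0.59 (14.8-fold, adjusted p = 0.023), although VCF 1 lay inside the control range. Il1r2, the decoy receptor that traps interleukin 1, stood at −2.05, −2.69 and −2.35 in CCF and at 0.67, 1.66 and 0.91 in VCF. Its difference of −3.45 ± 0.58 passed in 4 of the 14 fits that leave out 1 array, and control, from −1.41 to 0.86, was widely spread. Retnlg, a resistin-like hormone of granulocytes, stood at 0.48, −0.40 and 0.60 in CCF, from 1.54 to 2.11 in control and at 2.39, 3.66 and 3.25 in VCF, a fall of 2.87 ± 0.34 on the log2 scale (7.33-fold, adjusted p = 0.00697). Mmp8, the neutrophil collagenase, fell by 2.43 ± 0.35 (5.39-fold, adjusted p = 0.0175). Trem3, a myeloid activating receptor outside the list, stood at −3.47, −3.40 and −3.17 in CCF and at −1.52, −1.28 and −1.09 in VCF. It fell by 2.04 ± 0.24 (4.13-fold, adjusted p = 0.00697) with little spread in either group.

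**Figure D2:**
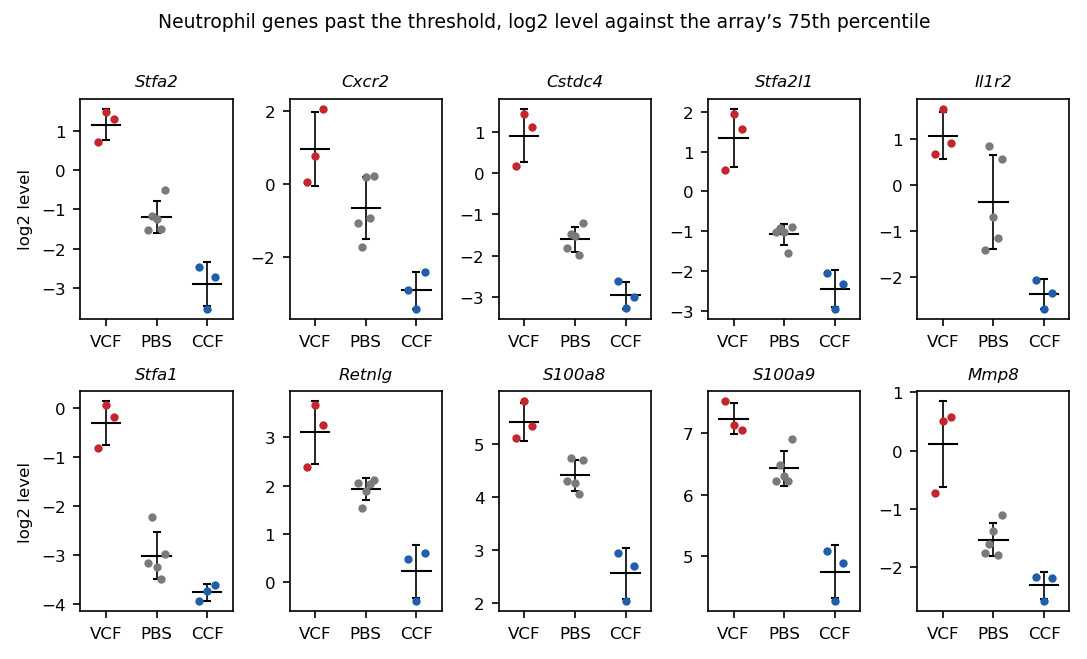
Log2 level (y axis, against the array's 75th percentile) of the 10 neutrophil genes past the threshold in VCF (red, 3 arrays), PBS control (grey, 5) and CCF (blue, 3), with bars for the mean and SD. In each panel the 3 CCF points lie below the 3 VCF points, and the control mean lies between both groups.

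The rest of the neutrophil list did not pass. Slfn4, Mmp9 and Stfa3 had CCF arrays below all VCF arrays, with Slfn4 at −2.89 ± 0.68 (adjusted p = 0.107) and Mmp9, gelatinase B, at −2.10 ± 0.51 (adjusted p = 0.116). Stfa3 was not well above background on any CCF array and was at least 3.14-fold lower there (adjusted p = 0.449), with control 2 at −0.64 and the other controls from −6.41 to −5.38. Csf3r, the receptor for the growth factor G-CSF, stood at 6.39, 7.04 and 6.27 in CCF and at 7.53, 6.43 and 6.5 in VCF, a difference of −0.25 ± 0.30 with overlapping arrays. The granule genes Ltf, Camp and Elane overlapped too, while the granule gene Mmp8, described above, passed. Ltf, lactoferrin, was at −0.76 ± 1.23, Camp, the cathelicidin, at −0.55 ± 0.98 and Elane, neutrophil elastase, at 1.12 ± 0.99. Ltf alone stood at 3.60, 0.61 and 2.06 in CCF and at 2.71, 5.06 and 0.78 in VCF, so that arrays of 1 group lay further apart than the groups. Lcn2, a siderophore binder that epithelium also makes, was at 0.18 ± 0.23.

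Mitotic genes rose in CCF. Of 25 genes listed 24 were measured, 7 rose and 0 fell, with a list median of 1.21. Over the 32 alternatives this median ran from 0.68 to 1.35. On all 3 CCF arrays 23 members were well above background, and on all 3 VCF arrays 12. The VCF values and the counts below thus rest partly on dim signal. At an unadjusted p under 0.05 stood 22, all higher, and for 19 each CCF array lay above each VCF array. The list median of single arrays against the control mean was 0.20, 0.21 and 0.56 in CCF 1 to 3, from −0.20 to 0.39 in control and −0.93, −1 and −0.71 in VCF 1 to 3. VCF thus lay below the control range, CCF 3 above it and CCF 1 and 2 below its top, which was control 2 alone. The other 4 control arrays reached 0.19, below each CCF array. Control 2 also stood apart in lists of other tissues. Its median against the control mean was 5.1 for squamous epithelium and thymus and 3.19 for fat. Without control 2 in the fit 10 mitosis members rose past the threshold, against 7 with it. The part of the other tissues in the result was not tested. The VCF mean was below the control mean for 23 of the 24 genes and the CCF mean for 2. Without CCF 3 only 3 members passed, and 4 without CCF 2, VCF 1 or VCF 2.

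Promoters of 3 of these genes are shown because a CCAAT box, the letters CCAAT on either strand, marks many cell cycle promoters. Each line gives the 150 bases before the RefSeq start (GRCm38.p6), with the box in capitals.
Mki67 (chr7:135716380-135716529, minus strand): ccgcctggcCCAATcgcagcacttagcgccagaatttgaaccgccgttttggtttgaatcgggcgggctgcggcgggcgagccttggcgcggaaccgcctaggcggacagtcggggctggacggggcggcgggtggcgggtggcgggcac
Cdca3 (chr6:124830026-124830175, plus strand): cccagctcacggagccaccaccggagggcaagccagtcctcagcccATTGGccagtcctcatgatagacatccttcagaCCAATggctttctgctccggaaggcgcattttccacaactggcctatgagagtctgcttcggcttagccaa
Ckap2 (chr8:22185820-22185969, minus strand): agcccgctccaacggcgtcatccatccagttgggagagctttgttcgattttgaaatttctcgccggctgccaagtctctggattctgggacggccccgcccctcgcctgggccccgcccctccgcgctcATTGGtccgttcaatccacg
Over the 250 bases before the start the box was present for 17 of the 19 mitosis list genes with a promoter in the table (89.5%), against 37.5% of all 27025 genes. The cell cycle homology region, TTTGAA on either strand, was present for 8 of the 19 (42.1%), against 18.3% of the genes searched. Both shares follow from which genes were listed, and the arrays do not bear on factor binding.

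Mki67, the nuclear antigen Ki-67 of cycling cells, stood at 0.39, 0.41 and 0.56 in CCF 1 to 3, from −0.16 to 0.44 in control and at −0.84, −1.10 and −0.94 in VCF 1 to 3. It rose by 1.41 ± 0.17 (2.67-fold, adjusted p = 0.00697), with VCF below every control array and CCF near the top of the control range. Kif20a, a kinesin of cytokinesis, stood at −2.26, −2.12 and −1.87 in CCF and at −3.58, −3.64 and −3.32 in VCF, where 1 array was not well above background. Its rise was 1.43 ± 0.15 (2.70-fold, adjusted p = 0.00587), and 1.422 and 1.451 within slide 1 and slide 2. Shcbp1, a midbody protein, was not well above background on any VCF array and was at least 1.99-fold higher in CCF (adjusted p = 0.00587), with means of −3.62 and −5.37. Ckap2, a spindle microtubule binder, rose by 1.80 ± 0.26 (3.48-fold, adjusted p = 0.0175), from −4.30, −3.70 and −3.30 in VCF to −2.18, −1.89 and −1.83 in CCF. The anaphase bundler Prc1 rose by 1.32 ± 0.19 and Cdca3, which triggers entry into mitosis, by 1.35 ± 0.18. Ckap2 and Cdca3 were well above background on 2 of 3 VCF arrays. Birc5, survivin, rose by 1.08 ± 0.19 (adjusted p = 0.0498) and passed in 1 of the 14 fits that leave out 1 array. For all 7 the CCF and VCF arrays were apart, while CCF and control arrays overlapped for Mki67, Ckap2, Prc1, Cdca3 and Birc5 but not for Kif20a and Shcbp1.

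**Figure D3:**
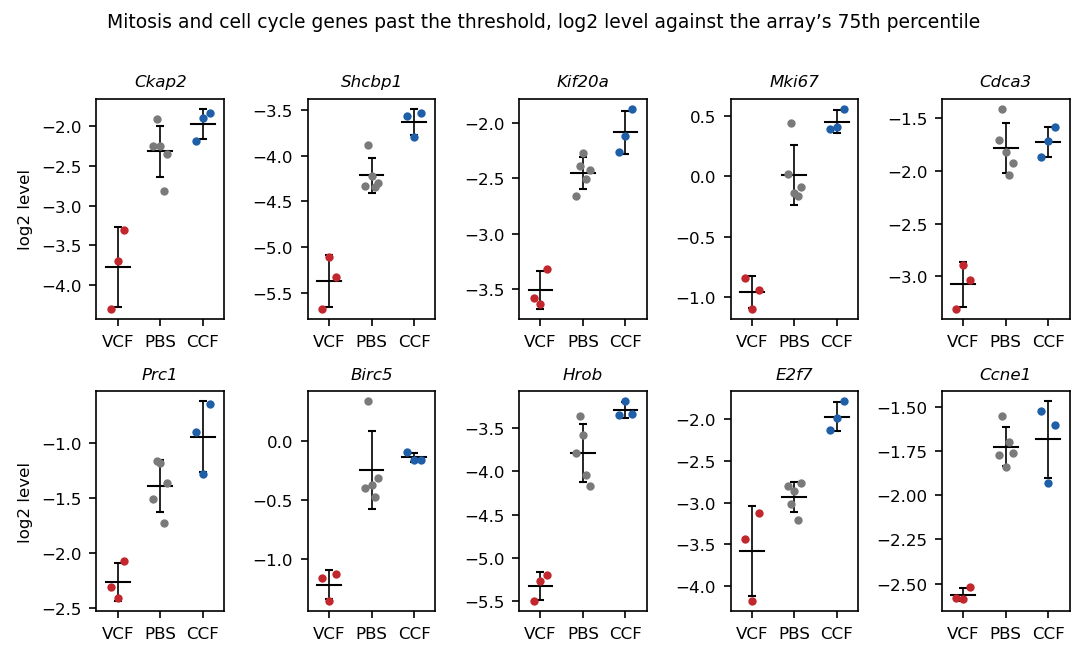
Log2 level (y axis, against the array's 75th percentile) of the 7 mitosis genes past the threshold and of Hrob, E2f7 and Ccne1, in VCF (red, 3 arrays), PBS control (grey, 5) and CCF (blue, 3), with bars for the mean and SD. In each panel the VCF points lie below the CCF points, and for 9 of the 10 genes they lie below all control points too.

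Further cell cycle genes outside the list passed. E2f7, a repressor that limits E2F targets, stood at −2.14, −1.99 and −1.79 in CCF and at −3.43, −4.18 and −3.13 in VCF, a rise of 1.60 ± 0.24 (3.04-fold, adjusted p = 0.0208). The probe used was well above background on 2 of 3 VCF arrays, and a second probe of E2f7 differed in the opposite direction. Hrob, a recombination factor, was not well above background on any VCF array and was at least 2.42-fold higher in CCF (adjusted p = 0.0277). Ccne1, cyclin E1, stood at −1.52, −1.93 and −1.60 in CCF, from −1.84 to −1.55 in control and at −2.58, −2.59 and −2.52 in VCF, a rise of 0.88 ± 0.13 (adjusted p = 0.0237). CCF overlapped control for Ccne1, and VCF lay well below both. Spc25, a kinetochore subunit, rose by 1.09 ± 0.19 (adjusted p = 0.0419), and its second probe went the opposite way. Spc25 passed in 1 of the 14 fits that leave out 1 array.

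Among the mitosis members that did not pass, most pointed the same way. Ccnb1, cyclin B1, was at 1.38 ± 0.25 (adjusted p = 0.0508) and Top2a, the topoisomerase of chromosome condensation, at 1.33 ± 0.30 (adjusted p = 0.0981). Cdk1, the mitotic kinase, was at 1.71 ± 0.61 with overlapping arrays, and Bub1b, a checkpoint kinase, at 0.26 ± 0.26. Kif23, a central spindle kinesin, was the 1 member below 0, at −0.36 ± 0.22. Genes of DNA replication were all above 0, 17 of 17, but with a median of 0.30 and 0 past the threshold (7 at an unadjusted p under 0.05, all higher). Tk1, thymidine kinase, was the nearest of them at 0.98 ± 0.19 (adjusted p = 0.0688).

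Blood and immune lists varied beside these groups. Of 10 erythroid genes measured 0 passed (8 at an unadjusted p under 0.05, all higher), with a median of 2.09, and for 9 the CCF arrays lay above the VCF arrays. Alas2, which starts haem synthesis in red cells, stood at 2.62, 2.21 and 2.67 in CCF, at 0.33, 2.24, 3.06, 0.18 and 1.63 in control 1 to 5 and at 0.03, −1.03 and 0.46 in VCF (2.67 ± 0.68, adjusted p = 0.125). Control arrays thus spanned most of the distance between the fibres, with control 1 and 4 near VCF, control 2 and 3 near CCF and control 5 between. The erythroid list median against the control mean was 0.25, 0.58 and 0.60 in CCF 1 to 3, from −0.77 to 0.78 in control and −1.15, −1.76 and −0.97 in VCF 1 to 3. Hbb-bt, a beta-globin gene, was at 2.27 ± 0.50 (adjusted p = 0.0945), Hbb-b2 at 2.08 ± 0.42 and the band 3 gene Slc4a1 at 2.36 ± 0.74. Hba-a1, an alpha-globin gene, was at 0.72 ± 0.32, and probes of globin copies may share signal. The erythroid genes moved with the mitosis list and against the neutrophil list from VCF to CCF, and their part in those results was not tested. Of 12 platelet genes 0 passed and 0 had an unadjusted p under 0.05, with a median of −0.11.

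The median over 22 T cell and NK cell genes was 0.47, and 20 of them were above 0. Of these 1 was called, and an unadjusted p under 0.05 was met by 9 higher and by 1 lower gene. Cd8a, the co-receptor of cytotoxic T cells, stood at −1.70, −1.29 and −1.74 in CCF, from −2.35 to −1.97 in control and at −2.77, −2.54 and −2.63 in VCF. It rose by 1.07 ± 0.17 (2.10-fold, adjusted p = 0.0337) with the 3 groups apart, and passed in 5 of the 14 fits that leave out 1 array. Its partner chain Cd8b1 was at 0.82 ± 0.24 (adjusted p = 0.173) and Lck, the kinase bound to it, at 0.74 ± 0.19 (adjusted p = 0.123). Klra1, an NK cell receptor, was the lowest of the list at −2.36 ± 0.64 (adjusted p = 0.147). Interferon-stimulated genes had a median of 0.47, with 21 of 23 above 0 and 0 called (8 at an unadjusted p under 0.05, all higher). Stat2, a carrier of type I interferon signals, was at 0.73 ± 0.14 (adjusted p = 0.0687) while its second probe went the opposite way. Irf9, the partner of Stat2, was at 0.61 ± 0.15 (adjusted p = 0.117), and its own second probe at 0.138. Cxcl10, a T cell attractant, was at 1.08 ± 0.36 (adjusted p = 0.217). MHC class II and dendritic cell genes had a median of 0.44 and 0 calls (unadjusted p under 0.05 for 5 higher genes and 1 lower of 16). H2-Ab1, a class II chain, was at 0.56 ± 0.15, while Cd80, a co-stimulatory ligand, was at −1.12 ± 0.22 (adjusted p = 0.0688) with all CCF arrays below VCF. The 2 further probes of Cd80 were at −1.135 and −0.023. B cell and plasma cell genes were near the median of all genes at 0.07, with 0 called and 1 of 16 at an unadjusted p under 0.05.

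Macrophage lists held no call. Monocyte and interstitial macrophage genes had a median of 0.28 (0 called, 5 of 15 higher at an unadjusted p under 0.05). The fractalkine receptor gene Cx3cr1 was at 0.89 ± 0.24, while its second probe differed by 0.005. Alveolar macrophage genes had a median of 0.22 (0 called, 2 of 14 higher at an unadjusted p under 0.05). Genes of lipid-laden macrophages had one of 0.18 (0 called, 2 higher and 1 lower of 13). Over all genes 7.56% were higher and 6.21% lower at that p, so that these counts are small beside the list sizes. Spp1, the matrix glycoprotein osteopontin, was the lower one. It stood at 3.33, 3.99 and 3.81 in CCF, from 3.03 to 3.81 in control and at 4.69, 5.42 and 4.48 in VCF, a difference of −1.15 ± 0.27 (2.22-fold, adjusted p = 0.107) that was −1.40 within slide 1 and −0.66 within slide 2. CCF arrays overlapped the control arrays and lay below VCF. Beside Trem3, described above, further myeloid genes outside these lists passed. Pla2g7, an enzyme that degrades platelet-activating factor, fell by 1.73 ± 0.30 (3.33-fold, adjusted p = 0.0409). It passed in 4 of the 14 fits that leave out 1 array. Tlr12, a receptor for parasite profilin, rose by 1.28 ± 0.18 (2.42-fold, adjusted p = 0.017), from −0.24, −0.45 and 0.15 in VCF to 1.18, 0.98 and 1.13 in CCF, with control from 0.53 to 1.02. Il4i1, an amino acid oxidase of antigen-presenting cells, rose by 1.12 ± 0.19 (adjusted p = 0.0392) and Cd300e, a monocyte receptor, by 1.07 ± 0.19 (adjusted p = 0.0457), each passing in 2 of the 14 fits that leave out 1 array.

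Few genes of xenobiotic and retinoid handling passed. The carboxylesterases Ces2e and Ces2b, which hydrolyse esters and drugs, both have their gene on chromosome 8. Ces2b rose by 1.32 ± 0.15 (2.49-fold, adjusted p = 0.00697), and Ces2e by 1.20 ± 0.15 (2.29-fold, adjusted p = 0.00749). Ces2e stood at −0.88, −0.64 and −0.90 in CCF, from −0.97 to −0.71 in control and at −2.21, −1.95 and −1.86 in VCF. CCF was level with control for Ces2e, and VCF lay below both groups. Crabp1, a binder of retinoic acid, rose by 1.71 ± 0.26 (3.28-fold, adjusted p = 0.023), from −4.89, −4.62 and −4.23 in VCF to −2.69, −2.87 and −3.04 in CCF, with control above both at −2.51 to −2.14. The Crabp1 probe used was well above background on 2 of 3 VCF arrays, and a second probe differed by 0.077. Of 13 retinoid genes Crabp1 was the 1 called and the 1 with an unadjusted p under 0.05. The list median was 0.02. Cyp1a1, a cytochrome induced through the aryl hydrocarbon receptor, stood at −1.55, −0.90 and 1.48 in CCF and at −3.10, −3.65 and −3.88 in VCF, and control from −2.10 to −1.25. Its difference of 3.22 ± 0.59 (9.34-fold) had an adjusted p of 0.0568 and was 2.15 within slide 1 and 5.36 within slide 2, with CCF 3 far above the other arrays. Fmo2, the flavin oxygenase of lung, was at −1.34 ± 0.37 (adjusted p = 0.152), and its second probe at −0.145. In the xenobiotic list as a whole 1 of 15 rose, the median was 0.05, and an unadjusted p under 0.05 was met by 5 higher genes and by 2 lower ones.

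Vascular, matrix and epithelial genes added few calls. Plvap, the diaphragm protein of fenestrated endothelium, stood at 4.65, 4.47 and 4.64 in CCF, from 4.20 to 4.99 in control and at 3.51, 3.26 and 3.49 in VCF. It rose by 1.17 ± 0.19 (2.24-fold, adjusted p = 0.0337), with CCF inside the control range and VCF below it. Plvap passed in 4 of the 14 fits that leave out 1 array. The endothelial list had a median of 0.38 (1 of 18 called, 7 higher at an unadjusted p under 0.05), and Apln, apelin, was at 1.28 ± 0.32 (adjusted p = 0.121). Extracellular matrix genes had a median of 0.51 with 0 of 21 called (9 higher at an unadjusted p under 0.05). The fibrillar collagens Col3a1 and Col1a1 were at 1.01 ± 0.25 (adjusted p = 0.123) and 0.91 ± 0.29 (adjusted p = 0.197), each with CCF arrays above VCF arrays. Gmnc, which starts the multiciliated fate, was higher by 1.49 ± 0.25 (2.80-fold, adjusted p = 0.0397), from −4.45, −3.45 and −3.59 in VCF to −2.39, −2.16 and −2.48 in CCF, above the control range of −4.58 to −4.12. Gmnc was well above background on 2 of 3 VCF and 3 of 5 control arrays, and passed in 3 of the 14 fits that leave out 1 array. The other 19 ciliated cell genes did not pass, and the list median was −0.06. Ehf, an epithelial transcription factor, fell by 1.59 ± 0.23 (3.01-fold, adjusted p = 0.0175), from −1.10, −0.80 and −0.51 in VCF to −2.80, −2.39 and −1.99 in CCF. Its 3 further probes ran from −0.744 to 0.849, with 2 of them below 0. VCF lay within or near the control range of −1.09 to −0.65 for Ehf, and CCF below it.

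Among secreted regulators Fst, follistatin, which neutralizes activins, stood at −4.09, −3.52 and −4.18 in CCF, from −3.42 to −1.51 in control and at −1.53, −0.70 and −1.07 in VCF. It fell by 2.83 ± 0.39 (7.09-fold, adjusted p = 0.017), with all CCF arrays below the control range. Galnt15, an enzyme of O-linked glycosylation, fell by 2.35 ± 0.37 (5.09-fold, adjusted p = 0.0277), to −3.18, −2.55 and −3.29 in CCF from −0.35, −0.64 and −0.99 in VCF. Of 18 clock genes 1 rose, 3 were higher and 2 lower by unadjusted p, and the median was 0.17. Nr1d2, the repressor REV-ERB beta, stood at 3.27, 3.20 and 2.84 in CCF, from 2.03 to 2.37 in control and at 1.87, 2.20 and 2.33 in VCF. It rose by 0.97 ± 0.16 (adjusted p = 0.04), with 1.20 within slide 1 and 0.51 within slide 2, and passed in 1 of the 14 fits that leave out 1 array. Dbp, an output gene, was at 1.34 ± 0.29 (adjusted p = 0.0906), while Arntl, which encodes BMAL1, was at −0.87 ± 0.28 (adjusted p = 0.198) and Nfil3 at −1.02 ± 0.31 (adjusted p = 0.184). For these 4 the CCF arrays did not overlap the VCF arrays. They are among 3 higher and 4 lower genes of the 18 without overlap, against 10.7% and 8.34% of all genes. No source used here gives the hour at which lungs were taken, and its part was not tested.

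**Figure D4:**
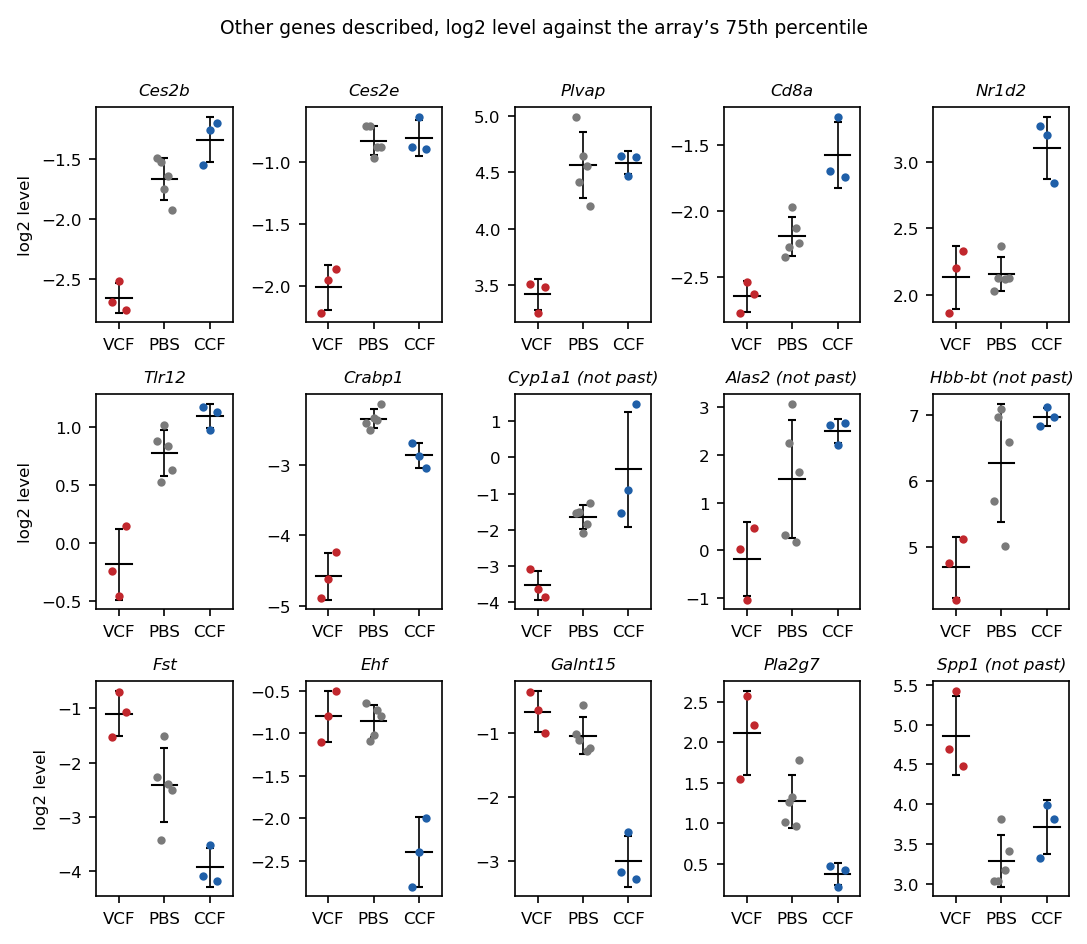
Log2 level (y axis, against the array's 75th percentile) of 15 further genes in VCF (red, 3 arrays), PBS control (grey, 5) and CCF (blue, 3), with bars for the mean and SD. Titles marked "not past" did not pass the threshold, and Cyp1a1 shows 1 CCF array at 1.48 far above the others.

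Over all 44 lists 23 called genes were members of at least 1 list, and 34 lists held 0 called genes. Most lists lay near the median of all genes of 0.01: genes of the respiratory chain had a median of −0.06 and heat shock genes one of 0.02, each with 0 called (0 and 1 at an unadjusted p under 0.05). Alveolar type 2 genes stood at 0.11 and club cell genes at −0.18, with 0 called (3 of 17 and 1 of 15 at an unadjusted p under 0.05, against 13.8% of all genes). Lists of neighbouring tissues, which trimming can carry into a lung sample, stood at −0.73 for fat (0 called and 0 at an unadjusted p under 0.05 of 12), −0.67 for cartilage (0 called, 1 of 5), 0.03 for heart and skeletal muscle (0 called, 0 of 16) and −0.19 for squamous epithelium and thymus (0 called, 1 of 9). The fat list median against control was 1.09, −1.79 and −0.15 in CCF 1 to 3 and 0.32, 2.12 and −0.71 in VCF 1 to 3, so that it differed as much within groups as between them.

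**Figure D5:**
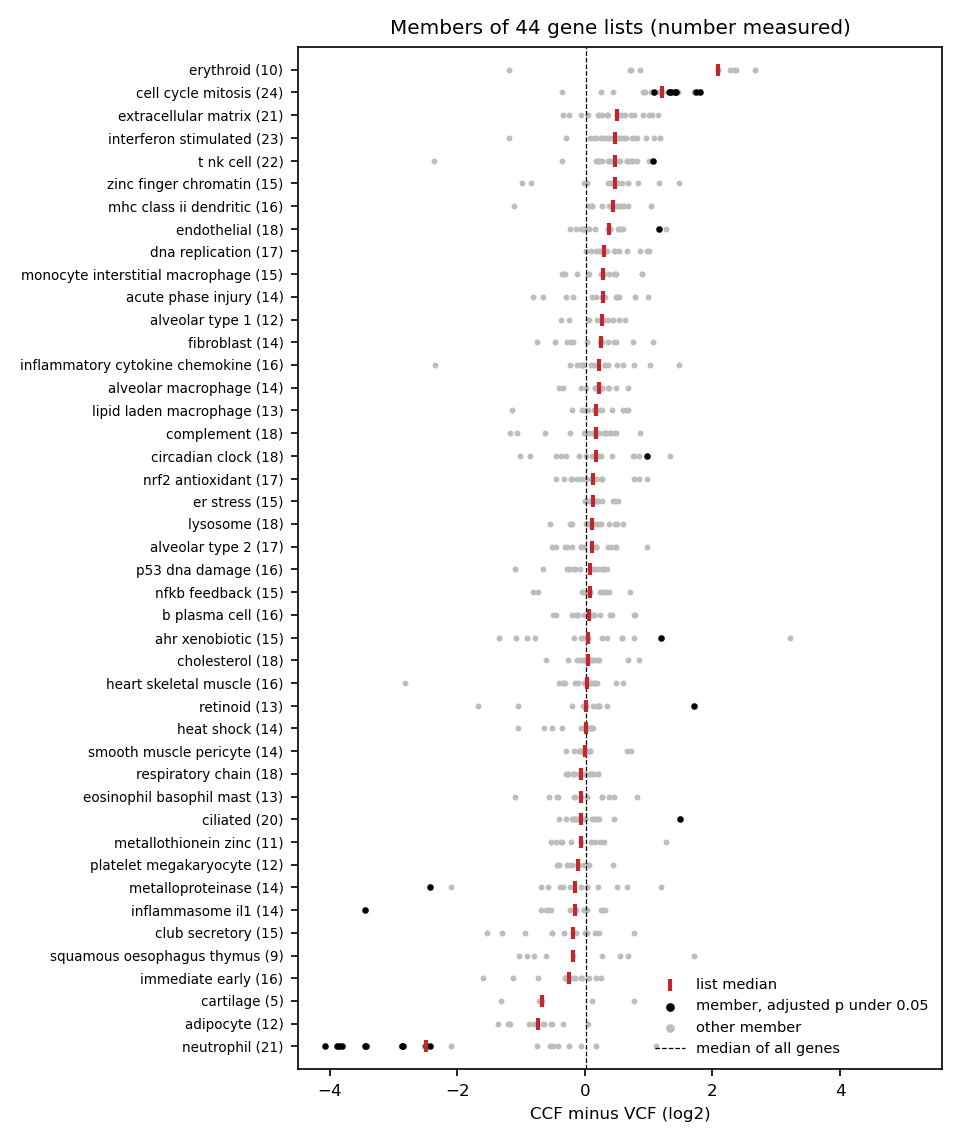
Each row is 1 of 44 gene lists with its number of measured genes, and each dot a member's CCF minus VCF difference (log2, x axis), black where the adjusted p was under 0.05. Red bars mark list medians, from −2.49 for neutrophil genes to 2.09 for erythroid genes, and the dashed line is the median of all genes.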

How the data were processed

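Lung RNA of 14 mice was labelled with Cy3 and hybridised to 1-colour Agilent arrays, 1 per mouse, per the labels' protocols. Per the file headers, Feature Extraction 10.7.3.1 read the scans, and the deposited files hold intensity values: the processed signal, background-subtracted and not scaled between arrays, and median signals of spot and local background. The authors' deposited table holds log2 values, each column equal to log2 of the processed signal minus 1 constant, with blanks for some probes and no centring per gene. The median of each column was, for VCF 1 to 3, 0.296, −0.297 and −0.366. CCF 1 to 3 had −0.358, 0.157 and −0.337, the RCF columns −0.167, −0.519 and −0.494, and the vehicle columns (control 1 to 5) −0.0516, −0.0302, −0.292, −0.497 and −0.485, and no source used here says where the constants come from. "Other" flag columns of the files mark spots well above background, saturated spots and outliers.

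From each array's log2 processed signal its 75th percentile over non-control spots was subtracted, and outlier spots were left out after that. Of 56605 probes, 37983 were well above background on at least 3 arrays, and 1 probe per gene (highest mean) left 30579 genes. Symbols came from RefSeq accessions (GRCm38.p6 tables), and a probe without one stood alone. R 4.3.3 was used with limma 3.58.1 and the package data.table (1.17.8). The fit took all 14 arrays with 4 groups and no covariate, two-sided, with Benjamini-Hochberg adjustment over all genes and a threshold of 0.05. The script was tested on simulated data. A gene not well above background on any array of 1 group is given as "at least" a fold, against the higher of its own signal and the lowest signal well above background. Array number limits the precision, and p-values measure the spread between these animals only.

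Genes were named by rule: the 10 largest rises and falls past the threshold without overlap of arrays, up to 4 called members of each list, up to 3 members of any list with the smallest p as values, and 36 genes of earlier results. Of 73 genes named, 30 lie outside the rule and were chosen after their values were seen, among them Trem3, Birc5, Ccne1, Spc25, Ces2b, Ehf, Galnt15, Tlr12, Pla2g7, Il4i1 and Cd300e. Markers of the lung label (Sftpc, Scgb1a1) are further ones. Other genes that the rule names are not reported here. Members, lists and rules were chosen with earlier results of these data known. Alternatives changed background, scaling, filter, samples, slide, replicate block, array weights and probe choice. Normexp (offset 50) ran on the median signal, as the mean signal was not used here. Promoters were aligned with Biopython 1.88, and promoters on chromosome 18 were left out of the motif search.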

Additional observations from a re-analysis of the deposited data

Results flagged for a closer look

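Among the 5 control arrays 7 of 76 genes and list medians described had 1 array far from the other 4, where chance flags about 1 in 20 groups. Control 2 was the highest for 5 genes. Stfa3 was at −0.64 there against −6.41 to −5.38, Birc5 at 0.34 against −0.47 to −0.31, Spc25 at −0.85 against −1.49 to −1.33, Shcbp1 at −3.88 against −4.34 to −4.22 and Arntl at −2.30 against −2.81 to −2.67. Trem3 was highest in control 5, at −1.55 against −2.34 to −2.12. Stfa2l1 was lowest in control 4, at −1.54 against −1.02 to −0.90. The groups of 3 arrays were not tested in this way.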

How the results depend on the processing

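The 68 calls became 11 with normexp background and the 75th percentile, 13 with array median scaling, 23 without a filter on dim probes (6 higher, 17 lower), 181 with probes above background on all 6 arrays (112 and 69), 9 in the fit of the 9 arrays on slides 1 and 2, 563 and 656 with slide as a fixed and a random block, 242 with array weights, 1 without VCF 1 and CCF 2, and 0 in the fit of the 6 arrays (3347 at an unadjusted p under 0.05) and within slide 1 (1974). Leaving out 1 array gave 21 to 142. Normexp background with quantile scaling gave 78 (33 higher, 45 lower). In the rest of this paragraph normexp background is that with the 75th percentile. The 5805 genes without overlap became 3330 with normexp background, and, with fewer arrays to separate, 12182 within slide 1, 11487 without VCF 1 and CCF 2 and 5805 to 8995 without 1 array. Of the 25 called genes named by rule 9, 8 and 13 passed with normexp background, array median scaling and no filter, 16 with all 6 arrays above background, 7 in the 9-array fit, 1 without the dim arrays, 0 in the 6-array fit and within slide 1, and 9 to 25 without 1 array. The 23 called list members became 9, 7 and 12, then 6, 1, 0 and 0 in the same fits, 55, 63 and 40 with slide fixed, slide random and array weights, and 9 to 29 without 1 array. Neutrophil falls numbered 6 with array median scaling and in the 9-array fit, 1 without the dim arrays, 0 in the 6-array fit and within slide 1, and 4 to 10 without 1 array. Mitosis rises numbered 1 with normexp background and with array median scaling, 4 without a filter, 0 in the 9-array and 6-array fits, within slide 1 and without the dim arrays, 18 and 17 with slide fixed and random, 15 with array weights, and 3 to 10 without 1 array. Each of the other settings kept these counts within 1.5 times. Blocking on the replicate number left 0 genes (4271 at an unadjusted p under 0.05), and 0 of the named genes, list members, neutrophil falls or mitosis rises. Residuals of same-numbered arrays correlated at 0.286, −0.093 and 0.625, with 1 pair under 0.1, so the numbers were not taken to pair the arrays, although same-numbered CCF and VCF arrays share a slide. CCF 2 correlated best with VCF 1 (0.329).

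Signs turned for uncalled genes alone. Csf3r was at 0.022 with normexp background and quantile scaling and at 0.031 with array weights, and Lcn2 at −0.033 within slide 1. Without 1 array Csf3r ran from −0.493 to 0.10 (above 0 without VCF 1), Ltf from −1.791 to 0.348 (VCF 2), Camp from −1.333 to 0.549 and Elane from −0.007 to 1.943 (sign turned without CCF 1), and Lcn2 from −0.078 (CCF 3) to 0.309. Within slide 2 alone Ltf was at 1.28 and Camp at 1.49. The cause of these changes was not tested, other than fewer arrays in a fit. The 2 dim arrays and 3 arrays a group limit what the data can show.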
